A study of Mus musculus with 24 samples.

Results

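Slco1c1, Slco1a4, Slco2b1, Slco3a1 and Slco2a1 are 5 genes of organic anion and thyroid hormone transporters that were followed in RNA-seq of mouse brain endothelial cells. They were chosen by symbol, make up 5 of the 53465 genes listed, and all 5 passed the filter for expressed genes, which 15493 genes passed (a minimum of 5 reads, reached by 6 or more mice of one genotype). The cells lining the brain's vessels were sorted by their surface CD31 from C57BL/6J mice housed with 12 h of light a day, and each library came from 1 mouse. Control mice were Bmal1fl/fl, with both copies of the clock gene Bmal1 floxed but no Cre. Bmal1Mut mice were Bmal1fl/fl; Tie2cre, which deletes the floxed exon in cells with an active Tie2 promoter, and that promoter is also active in some blood cells. Both groups thus carried the floxed alleles, and mice with Cre alone were not analysed here. Each genotype had 2 mice per time point, at 6 times from ZT2 to ZT22 (zeitgeber time, hours after lights on), which gives 12 Control and 12 Bmal1Mut mice. The question of the design was whether brain endothelial transcripts follow a 24 h rhythm, and whether levels or rhythms differ without Bmal1.

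Slco genes encode organic anion transporting polypeptides, membrane carriers that move hormones, conjugated steroids, prostaglandins, bile acids and many drugs without using ATP directly. At the blood-brain barrier, where tight junctions close the path between cells, such carriers in the endothelial membranes set which of these molecules pass. Slco1c1 carries thyroid hormone into the mouse brain and prefers thyroxine. Slco1a4 carries steroid conjugates and drugs such as digoxin, Slco2b1 carries sulfated steroids and drugs, Slco3a1 carries prostaglandins and thyroxine, and Slco2a1 is the prostaglandin uptake carrier.

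Slco1c1 and Slco1a4 lie in the same Slco gene cluster on chromosome 6 of GRCm38, with Slco1b2 (a mean of 5.42 reads) between them. Slco1c1 lies at chr6:141524368-141570177 on the plus strand and Slco1a4 at chr6:141805440-141856199 on the minus strand, 235 kb further along. Slco2b1 lies at chr7:99657804-99711340 on the minus strand, and the antisense genes Gm15635 and Gm34280 overlap its exons, with a mean of 3.54 and 14.9 reads. Slco3a1 lies at chr7:74275419-74554780 on the minus strand and Slco2a1 at chr9:102988712-103096002 on the plus strand. The 250 bases before the start site (RefSeq, GRCm38.p6) are shown for Slco1c1 and Slco1a4, because the reads of these 2 genes moved together across mice. They are chr6:141524104-141524353 on the plus strand and chr6:141856221-141856470 on the minus strand, printed 5′ to 3′, and capitals mark the longest run that both share.
Slco1c1: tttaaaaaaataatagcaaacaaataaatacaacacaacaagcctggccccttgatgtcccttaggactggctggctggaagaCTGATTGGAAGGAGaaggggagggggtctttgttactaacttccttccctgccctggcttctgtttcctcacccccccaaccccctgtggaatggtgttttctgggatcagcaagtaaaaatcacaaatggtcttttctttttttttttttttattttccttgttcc
Slco1a4: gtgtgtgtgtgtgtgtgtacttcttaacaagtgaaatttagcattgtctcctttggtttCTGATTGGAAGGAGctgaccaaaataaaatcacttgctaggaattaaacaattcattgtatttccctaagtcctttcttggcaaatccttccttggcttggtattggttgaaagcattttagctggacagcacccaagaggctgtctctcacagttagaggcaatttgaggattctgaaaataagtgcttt
The shared run of 14 bases stood 167 to 154 bases before the start in Slco1c1 and 191 to 178 bases before it in Slco1a4, on the same strand relative to the gene. On either strand it occurred in 2 of 32851 RefSeq promoter windows of the same length, which were these 2. It was found by comparing the windows, after the reads were known. The promoters of 4 of the 5 genes were matched, 6 windows in all, and Slco3a1 had no entry. Among the 12 pairs of windows of different genes, the longest shared run had a median of 8 bases, and 1 other pair also reached 14, Slco2b1 and Slco2a1 with CTCTCCTCCCTCTC on opposite strands (6 of 32851 windows). Searched on both strands, none of the 6 windows held the E-box CACGTG, which CLOCK and BMAL1 bind (6.02% of all windows), the E-prime box CACGTT (3.85%) or the nuclear receptor half-site AGGTCA (14% of all windows). That says only that these letters are not in these windows.

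Totals per library lay between 6136404 and 6648311 normalized reads. The read counts had been normalized by the authors, so the original depth is not in them. All 10 endothelial markers checked (such as Pecam1, which encodes CD31, and Cdh5) were detected, and their summed reads lay between 64081 and 107742 per mouse. Arntl, the gene symbol of Bmal1, had 1 to 468 reads in Control and 81 to 354 in Bmal1Mut mice, with medians of 166.5 and 242.5. The difference of Bmal1Mut from Control was 0.96 ± 0.55 (log2, SE; edgeR, adjusted p = 0.818), which did not pass and is not in the direction of a loss. The count covers the whole gene and does not measure the deleted exon, so it is no check of the genotype labels. The 8 libraries of ZT6 and ZT18 stood apart. Their mitochondrial share was 2.68% to 3.90% of reads against 5.78% to 17.4% in the other 16. The numbers of these libraries follow one another and run on into those of 13 others, so the labels mark no batch that holds them alone. Of the other 16 libraries, 12 share a library index (i5) that no ZT6 or ZT18 library has. What sets the 8 libraries apart cannot be told apart from the time points. Of the other 16 mice, 3 carry library numbers apart from all the rest, namely replicate 1 of Control ZT2 and both Bmal1Mut mice of ZT14. At ZT14 all mutants and no controls carry such numbers, so genotype and library numbers cannot be told apart at that time. In these bulk libraries, fewer cells of a type and less RNA per cell cannot be told apart either. Replicates here are separate mice.

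The members fell into 3 abundant and 2 scarce genes (reads per kilobase of exon, a scale on which genes of different length can be compared). In Control mice Slco1a4 had 2295 ± 385 reads per kilobase (SD, n = 12), which ranked 53 of 15481 genes. Slco1c1 had 912 ± 149 (rank 177) and Slco2b1 447 ± 55.7 (rank 402). Slco3a1, at 12.5 ± 4.09, and Slco2a1, at 9.54 ± 4.20, ranked 10518 and 11376. In Bmal1Mut mice the order was the same, with 2110, 859, 460, 14.0 and 9.14 reads per kilobase.

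Within a mouse, Slco1a4 stood above Slco1c1 in 12 of 12 Control mice, by a mean of 1.33 ± 0.16 on the log2 scale of reads per kilobase (SD), a 2.51-fold difference. Slco1c1 stood above Slco2b1 in 12 of 12 mice, by 1.02 ± 0.34. The gap from Slco2b1 to Slco3a1 was 5.22 ± 0.56, or 37.3-fold, again in 12 of 12. Each of these gave p = 0.000488 in an exact two-sided sign-flip permutation test, the smallest that 12 mice allow (adjusted p = 0.000651 over 4 neighbour pairs). The 2 scarce genes were not separated in Control mice, where Slco3a1 was above Slco2a1 in 8 of 12 (mean 0.47, exact permutation p = 0.0522). In Bmal1Mut mice it was above in 9 of 12 (mean 0.60, exact permutation p = 0.0371), but the adjusted p rose to between 0.0576 and 0.0742 when any of 7 mice was left out, to 0.0596 with the longest transcript as the length and to 0.313 without the ZT6 and ZT18 mice. In Control mice it fell to 0.0234 without the ZT6 and ZT18 mice, so whether this pair passed depended on which mice entered. The mean of Slco3a1 stayed above that of Slco2a1 in each setting run, by 0.37 to 0.76 in Control and 0.30 to 0.69 in Bmal1Mut mice (log2).

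**Figure D1:**
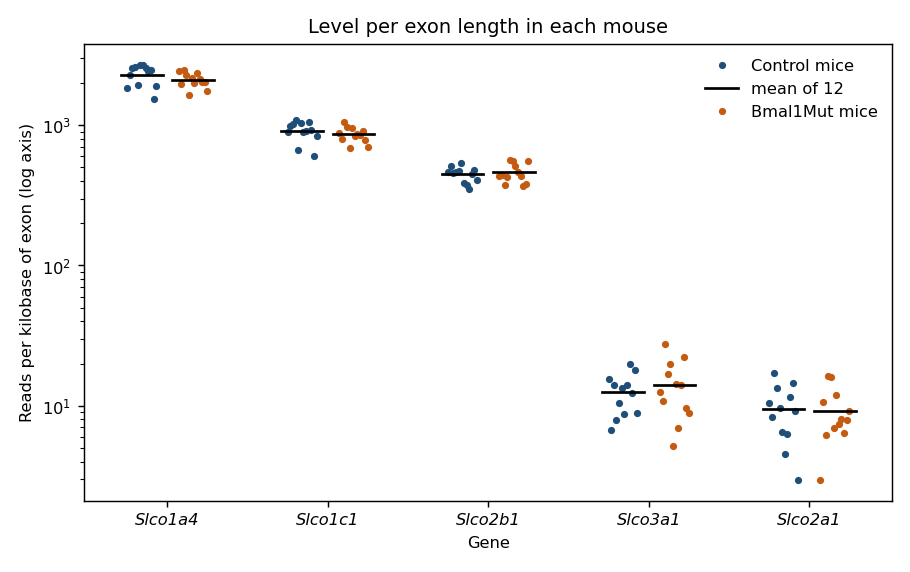
Reads per kilobase of exon of the 5 transporters in each mouse, on a log axis, with Control mice in blue, Bmal1Mut mice in orange and the mean of each 12 mice as a black line. Slco1a4, Slco1c1 and Slco2b1 lie far above Slco3a1 and Slco2a1, and the points of both genotypes overlap for each gene.

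The 5 members accounted for 99.8% of the reads of all 15 listed Slco genes, and Slco1a4 alone for 65.1%, between 58.7% and 70.9% in single mice. Of the other 10 Slco genes, 4 passed the filter. They were Slco4a1, Slco1a5, Slco5a1 and Slco1b2, with means of 13.8, 8.46, 8.21 and 5.42 reads per mouse. Slco1a6 had a read in 1 mouse, and Slco1a1, Slco4c1, Slco6b1, Slco6c1 and Slco6d1 had none in any of the 24.

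For Slco1c1, the thyroxine carrier, the normalized reads of the 2 Control mice at each time were 4676 with 5161 (ZT2), 5323 with 5642 (ZT6), 3461 with 5341 (ZT10), 4662 with 4726 (ZT14), 5487 with 4791 (ZT18), 3135 with 4377 (ZT22). The Bmal1Mut pairs had 4565 with 4168 (ZT2), 5500 with 5043 (ZT6), 3547 with 4966 (ZT10), 4380 with 4488 (ZT14), 4385 with 4743 (ZT18), 4057 with 3641 (ZT22). The lowest mouse in each genotype was at ZT22 or ZT10 and the highest at ZT6, and the mutants lay below both controls at ZT2, ZT14 and ZT18 and overlapped them at the other times. At ZT10 the 2 mice stood far apart in both genotypes.

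Slco1a4 was the most abundant member, and its Control pairs had 11868 with 14698 (ZT2), 16288 with 16605 (ZT6), 12413 with 17206 (ZT10), 17314 with 16412 (ZT14), 15735 with 15950 (ZT18), 9902 with 12257 (ZT22) reads. Its Bmal1Mut pairs had 15612 with 12685 (ZT2), 15961 with 14671 (ZT6), 10479 with 14018 (ZT10), 12806 with 15166 (ZT14), 13604 with 13098 (ZT18), 13084 with 11248 (ZT22). Both mutants lay below both controls at ZT6, ZT14 and ZT18, and the genotypes overlapped at ZT2, ZT10 and ZT22.

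Slco2b1, the sulfated steroid carrier, had Control pairs of 2780 with 3027 (ZT2), 2718 with 2782 (ZT6), 2814 with 3210 (ZT10), 2302 with 2235 (ZT14), 2096 with 2664 (ZT18), 2870 with 2439 (ZT22) reads. Its values in Bmal1Mut pairs were 2603 with 2639 (ZT2), 2231 with 2561 (ZT6), 3390 with 3308 (ZT10), 3032 with 2747 (ZT14), 2610 with 2179 (ZT18), 2281 with 3335 (ZT22). The mutants lay below both controls at ZT2 and ZT6 and above both at ZT10 and ZT14, so no single direction held over the day.

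Slco3a1, a carrier of prostaglandins and thyroxine, ranged from 57 to 167 reads in Control mice (median 109) and from 44 to 232 in Bmal1Mut mice (median 113). Slco2a1, the prostaglandin uptake carrier, ranged from 40 to 233 (median 128) and from 40 to 219 (median 108). By pair, replicate 1 first as for the other members, Slco2a1 had 142 with 112 (ZT2), 233 with 180 (ZT6), 131 with 88 (ZT10), 61 with 85 (ZT14), 156 with 198 (ZT18), 125 with 40 (ZT22) reads in Control mice. In Bmal1Mut mice the pairs were 40 with 143 (ZT2), 84 with 219 (ZT6), 218 with 94 (ZT10), 161 with 101 (ZT14), 109 with 86 (ZT18), 107 with 124 (ZT22). Its 2 mice of a time point often stood far apart, as 125 and 40 reads in Control mice of ZT22 and 40 and 143 in Bmal1Mut mice of ZT2. Both scarce genes varied far more between mice than the abundant members, with a coefficient of variation over 24 mice of 40.7% and 42.8% against 14.8% for Slco1c1, 15.2% for Slco1a4 and 14.0% for Slco2b1. Over the 5 members and 6 times, both mutants lay outside the range of both controls in 13 of 30 cases, 4 above and 9 below. Over all tested genes and times this held in 34% of cases, 17.3% above and 16.7% below. Of the 13 cases, 4 were at ZT14, where the 2 genotypes have separate library numbers, and 9 of 25 were at the other times. The members are not independent in this count, since Slco1c1 and Slco1a4 varied together.

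**Figure D2:**
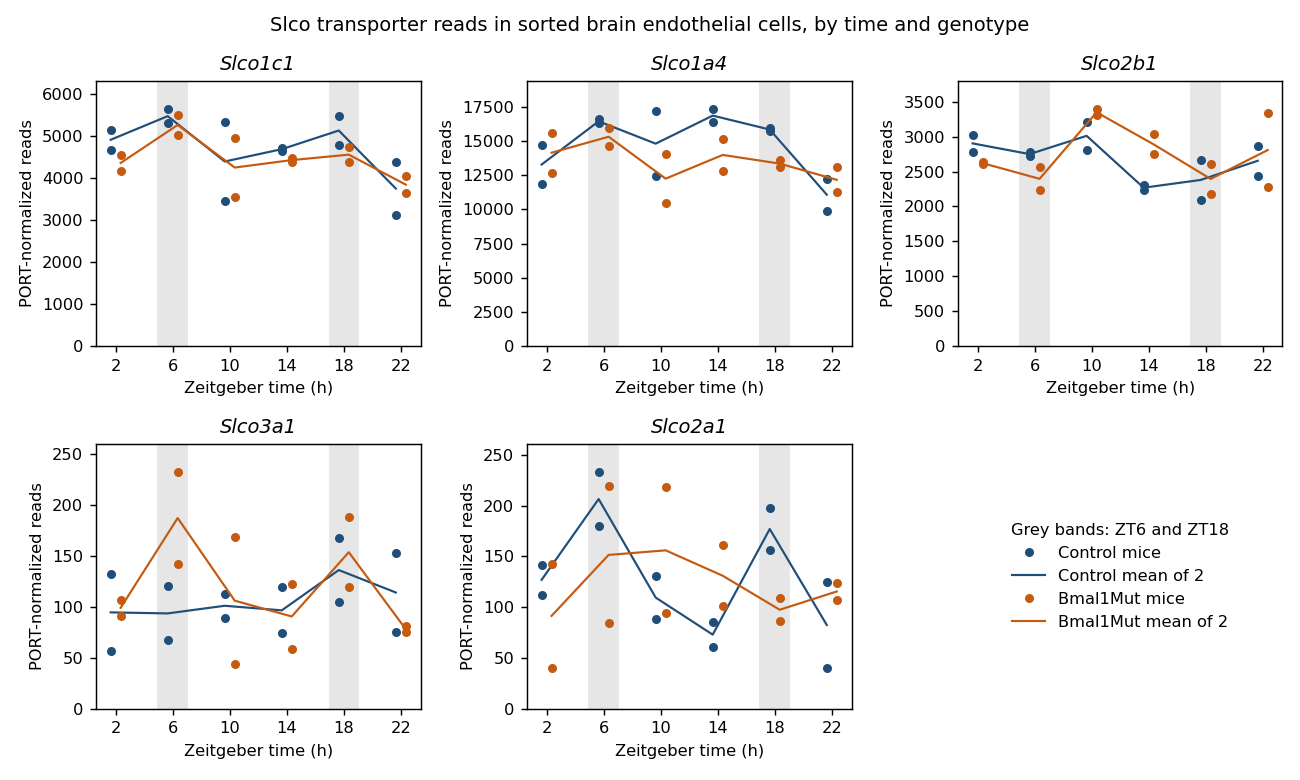
Normalized reads of each transporter in each mouse (points) against zeitgeber time in hours, with lines through the mean of the 2 mice, Control in blue and Bmal1Mut in orange, and grey bands at ZT6 and ZT18. Slco1a4 in Control mice has its highest mouse at ZT14 (17314 reads) and its lowest at ZT22 (9902), and all mutant points lie within that range.

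No member passed the test for a difference between genotypes. The difference of Bmal1Mut from Control, with time point in the model, was -0.08 ± 0.07 (log2, SE) for Slco1c1 and -0.11 ± 0.07 for Slco1a4 (edgeR's quasi-likelihood test, adjusted p = 0.897 and 0.846 over all genes). Slco2b1 had 0.04 ± 0.07, Slco3a1 0.11 ± 0.22 and Slco2a1 0.0013 ± 0.23 (adjusted p = 0.969, 0.973 and 1.00). The 95% intervals of this fit ran from -0.23 to 0.06 for Slco1c1, from -0.26 to 0.04 for Slco1a4 and from -0.10 to 0.18 for Slco2b1, but from -0.34 to 0.56 for Slco3a1 and from -0.47 to 0.47 for Slco2a1. Of all genes, 31 (0.2%) were called, and 1063 (6.86%) had an unadjusted p under 0.05, among them 0 of the 5 members. The median log2 difference was 0.0013 over the members and 0.0033 over all genes. DESeq2 likewise called 0 of the 5. In the 8 mice of ZT6 and ZT18 alone, Slco3a1 had 0.61 ± 0.30 and Slco2a1 -0.63 ± 0.28, both outside the intervals of all mice (edgeR, adjusted p = 0.895 and 0.867), and without those mice the values were -0.14 ± 0.28 and 0.32 ± 0.28 (adjusted p = 0.988 and 0.962). Without the 3 mice of separate library numbers, 3 genes were called and 0 of the 5, and Slco3a1 moved to 0.28 ± 0.25 and Slco2a1 to -0.098 ± 0.26.

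No 24 h rhythm passed the threshold for any member. By meta2d, which combines the rank-based JTK_CYCLE with a Lomb-Scargle periodogram, 0 of 15493 genes (0%) had q under 0.05 in either genotype, and 377 in Control (2.43%) and 351 in Bmal1Mut mice (2.27%) had p under 0.05. The paper used a looser q threshold, which 48 genes met here in Control and 6 in Bmal1Mut mice, none of them a member. Slco1a4 in Control mice came nearest among the members, with p = 0.0838 and q = 1.00 (n = 12), a fitted peak at ZT11.6 and a relative amplitude of 14.4%. Its time point means were 13283 reads at ZT2, 16446.5 at ZT6, 14809.5 at ZT10, 16863 at ZT14, 15842.5 at ZT18 and 11079.5 at ZT22. The mean at ZT10, the time nearest the fitted peak, was below those of ZT6, ZT14 and ZT18. In Bmal1Mut mice the relative amplitude was 5.14% with p = 1.00 (n = 12). Slco2b1 had p = 0.601 in Control mice (n = 12), and the other p-values in both genotypes were 1.00. Fitted with a cosine and a sine in edgeR, Slco1a4 in Control mice had p = 0.0359 (n = 12, adjusted p = 1.00), with 25 genes called in Control and 0 in Bmal1Mut mice. Leaving out single Control mice moved its meta2d p between 0.00114 and 0.300. Its lowest q was 0.568, without replicate 1 of ZT10, which did not pass 0.05 but met the looser threshold of the paper.

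The difference in rhythm between genotypes was tested itself. The p-values were 0.137 for Slco1a4, 0.347 for Slco2b1, 0.410 for Slco3a1, 0.667 for Slco2a1 and 0.922 for Slco1c1 (edgeR's quasi-likelihood test, adjusted p = 1.00 for each). Across all genes 0 (0%) were called, 657 (4.24%) had an unadjusted p under 0.05, and DESeq2 called 1. A loss of the Slco1a4 time course in the mutants was therefore not shown, although the fitted amplitude was lower in Bmal1Mut mice. Time was also taken as 6 separate times rather than a cosine, an alternative chosen after the data were seen. It gave an adjusted p of 0.0515 for Slco1c1 and 0.0529 for Slco1a4 (edgeR's quasi-likelihood test), while 2120 genes (13.7%) were called. The 6 times include ZT6 and ZT18, whose libraries stood apart, and an indicator of those times alone called 2617 genes (16.9%). Time of day and that difference between libraries cannot be told apart in this test. The interaction of genotype with the 6 times called 1 gene (0.00645%), which was no member, and 802 genes (5.18%) had an unadjusted p under 0.05, none of them a member.

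Slco1c1 was higher in the libraries of ZT6 and ZT18. These 8 mice had 4385 to 5642 reads (median 5183) and the other 16 had 3135 to 5341 (median 4434), so the sets overlapped. The difference was 0.24 ± 0.09 (log2, SE; edgeR's quasi-likelihood test, adjusted p = 0.0436), with 0.24 in Control and 0.26 in Bmal1Mut mice, where it passed in neither genotype alone (adjusted p = 0.397 and 0.167). In the same test 2617 genes (16.9%) were called, 930 higher and 1687 lower, so 1 of 5 members was near the background. An unadjusted p under 0.05 was reached by 4 of the 5, against 26.8% of all genes. It was a marginal call, since leaving out any of 12 of the 24 mice raised the adjusted p above 0.05, to at most 0.0934.

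The other 4 members did not pass. Slco1a4 had a difference of 0.17 ± 0.09 (adjusted p = 0.258), Slco2b1 -0.17 ± 0.08 (0.159), Slco3a1 0.55 ± 0.22 (0.0856) and Slco2a1 0.52 ± 0.23 (0.135). The median over the 5 members was 0.24, against -0.0061 over all genes. Slco2b1 was the only member with a lower value in ZT6 and ZT18, a direction it kept with each mouse left out and in each genotype.

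The 2 scarce members passed the ZT6 and ZT18 test in one genotype each. Slco2a1 in Control mice had 156 to 233 reads at ZT6 and ZT18 and 40 to 142 at the other times, with no overlap, a difference of 0.96 ± 0.28 (edgeR's quasi-likelihood test, adjusted p = 0.0327, 6.83% of genes called). In Bmal1Mut mice it had 84 to 219 and 40 to 218 reads, which overlapped (0.04 ± 0.33, adjusted p = 0.968). Slco3a1 went the other way, with 119 to 232 against 44 to 168 reads in Bmal1Mut mice (0.91 ± 0.29, adjusted p = 0.0458, 9.91% of genes called) and 67 to 167 against 57 to 153 in Control mice (0.17 ± 0.31, adjusted p = 0.881). The difference between genotypes in this effect was -0.93 ± 0.45 for Slco2a1 (p = 0.0465) and 0.73 ± 0.44 for Slco3a1 (p = 0.10, n = 24 mice for both), neither of which passed over all genes (edgeR's quasi-likelihood test, adjusted p = 1.00). An unadjusted p under 0.05 within a genotype was reached by 1 member in Control mice (17.6% of genes) and by 2 in Bmal1Mut mice (20.7%). In the test of the difference, for 604 genes (3.9%) the unadjusted p was under 0.05, and 0 genes were called by either edgeR or DESeq2. A difference between genotypes in this effect was thus not shown.

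Markers of other brain cell types moved with the same libraries. Before the CD31 sort, myelin had been removed with beads and CD90+ cells had been depleted, and dead cells and doublets were gated out. Summed over 8 microglia and macrophage markers, reads were 1030 to 1714 in the ZT6 and ZT18 mice and 9177 to 24623 in the others, and 7 of the 8 were called lower. The 6 astrocyte markers summed to 4361 to 7185 against 9533 to 19376 (5 called lower), the 5 oligodendrocyte markers to 2078 to 4346 against 5057 to 17629 (5 lower) and the 5 neuron markers to 42 to 95 against 100 to 719 (5 lower). The oligodendrocyte marker Mog had 0 reads in the ZT6 and ZT18 mice. In the other direction, the 10 endothelial markers summed to 98242 to 107742 against 64081 to 94101 (7 called higher, median 0.48) and the 7 pericyte and smooth muscle markers to 11380 to 18598 against 7287 to 13636 (6 higher). Choroid plexus markers were lower too (6 of 6, sums of 2017 to 7633 against 3171 to 69255). Of the red blood cell markers 1 of 5 was called lower, the haemoglobin gene Hbb-bt, and their sums of 1492 to 4895 and 2410 to 9014 overlapped. The rise of Slco1c1, at 0.24, was thus below the median rise of the endothelial markers. What part these shifts have in the values of the members was not tested.

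**Figure D3:**
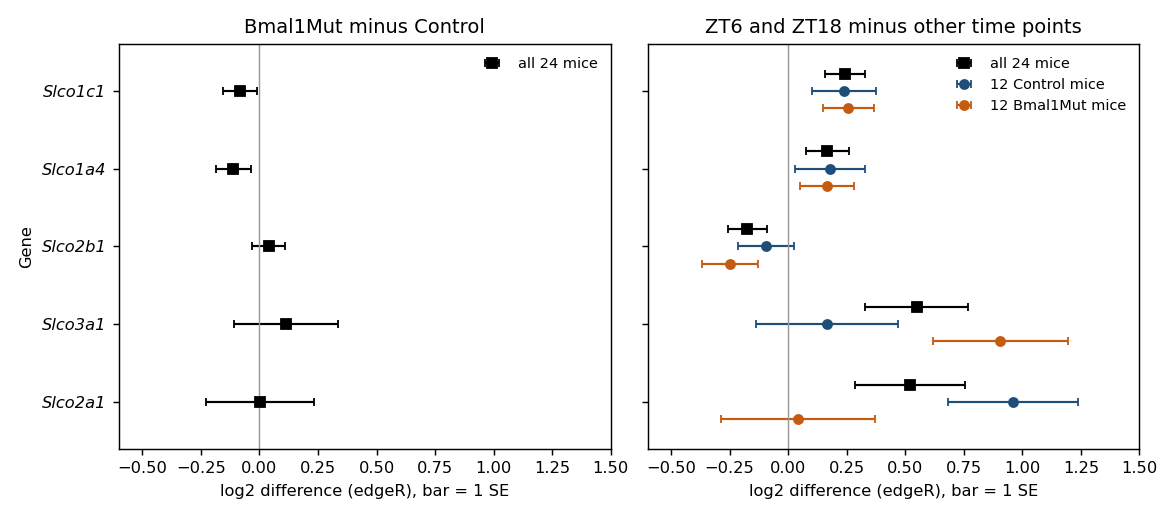
Log2 differences of the 5 transporters with 1 SE (edgeR), for Bmal1Mut minus Control on the left and for ZT6 and ZT18 minus the other time points on the right, in all 24 mice and in each genotype alone. The genotype differences lie around 0, and on the right Slco1c1 and Slco1a4 lie above 0 in both genotypes while Slco2a1 is highest in Control mice (0.96) and Slco3a1 in Bmal1Mut mice (0.91).

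Slco1c1 and Slco1a4 varied together from mouse to mouse. In the 16 mice of ZT2, ZT10, ZT14 and ZT22, their log2 reads had a Pearson r of 0.84 (permutation p = 3.0e-05, adjusted p = 0.0003 over 10 pairs of members) and a Spearman rho of 0.86 (permutation p = 2.0e-05, adjusted p = 0.0002). Without the 2 mice farthest from the median of Slco1c1, r was 0.83. It was 0.82 in the 8 Control mice (exact permutation p = 0.00967), 0.87 in the 8 Bmal1Mut mice (exact permutation p = 0.00645) and 0.91 in the 12 mice whose libraries share the i5 index that no ZT6 or ZT18 library has (permutation p = 5.0e-05). In the 13 mice left without those of separate library numbers it was 0.89 (permutation p = 9.0e-05). In the 8 mice of ZT6 and ZT18, r was 0.78 and rho 0.81, which did not pass over 10 pairs (exact permutation p = 0.0299 and 0.0218, adjusted p = 0.15 and 0.109, r without the 2 farthest 0.66). The ratio of Slco1a4 to Slco1c1 reads stayed between 2.54 and 3.71 in the 24 mice, with a mean of 3.13 ± 0.35 in Control and 3.04 ± 0.21 in Bmal1Mut mice (SD, n = 12).

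Over the 24 mice, each was also the gene nearest to the other by a narrow margin. Of 7711 genes with a mean of 100 or more reads, Slco1a4 had the smallest root mean square difference from Slco1c1 over the 24 mice (0.130 on the mean-centred log2 scale, where the median gene had 0.38), and Slco1c1 the smallest from Slco1a4. Next to Slco1c1 came Itm2a (0.133), an integral membrane protein gene, and Prom1 (0.14), which encodes the membrane glycoprotein CD133. Slco1a4 was followed by Prom1 (0.130) and the zinc carrier gene Slc39a10 (0.15). The other members had no such partner in the family. Slco2b1 was most like Kpnb1 (0.16), the nuclear import receptor, Ubl3 (0.16) and Ski (0.17), and Slco1c1 ranked 2772 for it. The root mean square deviation of Slco2b1 itself was 0.18, the value that a gene without any variation would give, so these matches were only a little closer. For Slco1c1 and Slco1a4 this deviation was 0.23 and 0.24. The scarce members had looser matches, Tgfb1i1 (0.36), Rgs4 (0.41) and Mob4 (0.41) for Slco3a1, and Plpp3 (0.33), Dysf (0.40) and Unk (0.44) for Slco2a1.

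The same was asked of the 2 mice that share a genotype and a time point, a comparison that takes out both genotype and time and was chosen after the data were seen. Replicate 1 and replicate 2 differed in the same direction for Slco1c1 and Slco1a4 in 11 of 12 groups (correlation of the differences through 0 of 0.87, exact sign-flip permutation p = 0.00342, adjusted p = 0.0114 over 10 pairs). At ZT10, Slco1c1 was lower in replicate 1 by a log2 difference of -0.65 in Control and -0.46 in Bmal1Mut mice, and Slco1a4 by -0.49 and -0.40. Of 7711 genes with a mean of 100 or more reads, 43 (0.558%) matched Slco1c1 in 11 or more groups. Ordered by the correlation through 0 among these 7711 genes, Slco1a4 ranked 7 for Slco1c1 and Slco1c1 ranked 2 for Slco1a4. The exact tests take the 12 groups as independent of each other, whereas the mice came from a pair of experiments that the labels do not mark.

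Slco2a1 moved against both. In 12 of 12 groups the mouse with more Slco1c1 had less Slco2a1 (correlation through 0 of -0.76, exact permutation p = 0.000488, the smallest possible, adjusted p = 0.00488), and in 11 of 12 the mouse with more Slco1a4 had less (-0.81, exact permutation p = 0.00244, adjusted p = 0.0114). In Control mice of ZT22, for example, replicate 1 had 3135 reads of Slco1c1 and 125 of Slco2a1, and replicate 2 had 4377 and 40. In Bmal1Mut mice of ZT2, replicate 1 had 4565 and 40 and replicate 2 had 4168 and 143. Among all 7711 genes, 3 (0.0389%) went against Slco1c1 in 12 of 12 groups, Slco2a1 included, and 54 (0.7%) in 11 or more. Against Slco1a4, 41 genes (0.532%) went in 11 or more groups and 5 (0.0648%) in 12. In Control mice of ZT14 the difference in Slco1c1 was only 0.01, and in the values as deposited, without TMM scaling, the count was 11 of 12 for Slco2a1 and 9 of 12 for Slco1a4 (adjusted p = 0.00977 and 0.0277, exact permutation). Without ZT6 and ZT18 the directions held in 8 of 8 groups for each of the 3 pairs (exact permutation p = 0.00781 each). Without the 2 groups that hold separate library numbers they held in 9, 10 and 9 of 10 groups for Slco1c1 with Slco1a4, Slco1c1 with Slco2a1 and Slco1a4 with Slco2a1 (exact permutation, adjusted p = 0.0456, 0.0195 and 0.0456).

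Across the 16 mice, Slco2a1 and Slco1c1 had a rho of -0.64 (permutation p = 0.00820, adjusted p = 0.0329), but an r of -0.45 (permutation p = 0.0811, adjusted p = 0.203, -0.45 without the 2 farthest mice). For Slco2a1 and Slco1a4 these were -0.64 (adjusted p = 0.0329) and -0.51 (permutation p = 0.0404, adjusted p = 0.202, -0.48 without the 2 farthest). In the 8 mice of ZT6 and ZT18 the r was 0.07 with Slco1c1 and 0.38 with Slco1a4 (exact permutation p = 0.863 and 0.348). Across the 16 mice the opposite direction of Slco2a1 thus passed by rank and not by r with TMM scaling. In the values as deposited, the rho was -0.47 with Slco1c1 and -0.65 with Slco1a4 (permutation, adjusted p = 0.140 and 0.0401). There only the pair with Slco1a4 passed by rank, and neither passed by r. Slco2b1 and Slco3a1 passed with no other member over 10 pairs. Their lowest adjusted p for r with TMM scaling was 0.15, with each other in the 8 mice (r = -0.79, exact permutation p = 0.0174). In the values as deposited this pair had r = -0.84 (exact permutation p = 0.00578, adjusted p = 0.0578).

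Sums of cell type markers also differed between the 2 mice of a group. Choroid plexus, oligodendrocyte and neuron sums went with Slco1c1 and against Slco2a1 by their correlations through 0, given here with no test. With Slco1c1 these were 0.45 for choroid plexus (same direction in 8 of 12 groups), 0.45 for oligodendrocytes (7 of 12) and 0.41 for neurons (8 of 12). With Slco2a1 they were -0.64 (opposite direction in 8 of 12), -0.57 (7 of 12) and -0.41 (8 of 12). These values rest in part on single groups. Replicate 2 of Control ZT22 had a choroid plexus sum of 69255 reads against 7020 in replicate 1, and without that group the choroid plexus values were 0.13 with Slco1c1 and -0.46 with Slco2a1. Without the Bmal1Mut group of ZT10 the Slco1c1 values were 0.25 for oligodendrocytes and 0.13 for neurons, and the Slco2a1 value for neurons was -0.21. Without the Control group of ZT10 the Slco1c1 values were 0.83 for choroid plexus, 0.66 for oligodendrocytes and 0.67 for neurons. The astrocyte sum had 0.27 with Slco1c1 and -0.45 with Slco2a1, against which the counts ran, with the same direction in 4 of 12 groups for Slco1c1 and in 8 of 12 for Slco2a1. Without the Bmal1Mut group of ZT10 the 0.27 became -0.0056. The endothelial sum had 0.29 with Slco1c1 and 0.11 with Slco2a1, and the pericyte and smooth muscle sum -0.25 and 0.35. With each group left out the endothelial values lay between -0.29 and 0.60 and between -0.13 and 0.33, and the pericyte and smooth muscle values between -0.35 and -0.098 and between 0.19 and 0.59. Slco1a4 had 0.30 with the endothelial sum and -0.46 with the pericyte and smooth muscle sum (same direction in 6 and 4 of 12 groups). With each group left out these lay between -0.11 and 0.50 and between -0.58 and -0.37. Its choroid plexus, oligodendrocyte and neuron values were 0.39, 0.36 and 0.21. The mouse with more Slco1c1 had the larger endothelial sum in 5 of 12 groups and the larger pericyte and smooth muscle sum in 5, and the mouse with more Slco2a1 had the larger ones in 7 and 7. Over the 16 mice, Slco1c1 had r = -0.49 with the pericyte and smooth muscle sum (permutation p = 0.0516, adjusted p = 0.388 over 20 relations, rho -0.46). It had r = 0.46 with the endothelial sum and -0.33 with the microglia sum (permutation p = 0.0766 and 0.206, adjusted p = 0.388 and 0.411 over 20 relations). Slco1a4 had 0.41 and -0.41 (permutation p = 0.116 and 0.114, adjusted p = 0.388 for both). The Spearman rho values were 0.45 and -0.41 for Slco1c1, and 0.51 and -0.61 for Slco1a4 (adjusted p between 0.277 and 0.341). In the 8 mice of ZT6 and ZT18, r with the endothelial sum was -0.15 for Slco1c1 and -0.50 for Slco1a4, the opposite sign. For Slco1c1 with the pericyte and smooth muscle sum it was 0.19, also opposite. The microglia values stayed below 0, at -0.45 and -0.22. None of these passed (exact permutation, adjusted p between 0.585 and 0.789 over 20 relations). Slco2a1 had r = 0.29 with the endothelial and 0.35 with the pericyte and smooth muscle sum over the 16 mice (permutation, adjusted p = 0.508 and 0.411). In the 8 mice of ZT6 and ZT18 these were -0.80 and -0.72, the opposite sign (exact permutation p = 0.0188 and 0.0323). They did not pass over 20 relations either (adjusted p = 0.215 for both). The part of these cell types in the pattern was not tested.

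**Figure D4:**
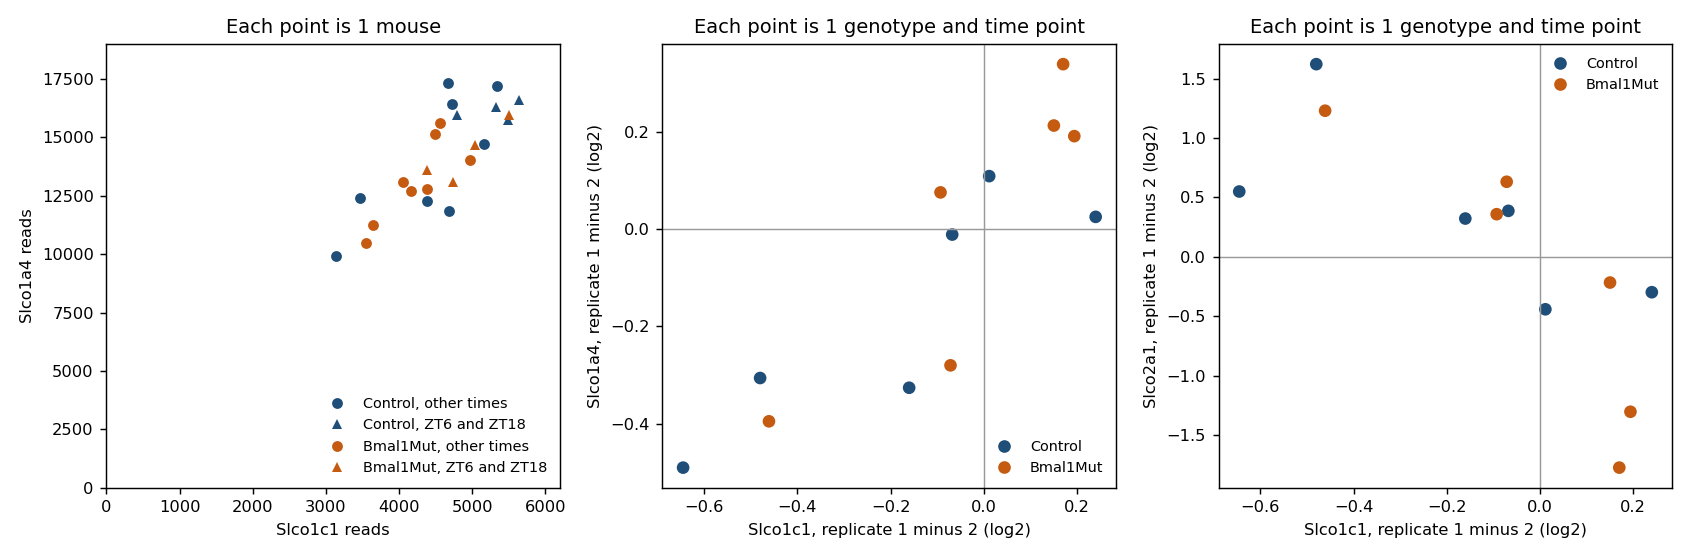
Left, reads of Slco1a4 against Slco1c1 in each of 24 mice, with triangles for ZT6 and ZT18. Middle and right, the log2 difference of replicate 1 from replicate 2 in each of 12 groups, for Slco1a4 and for Slco2a1 against Slco1c1. Slco1a4 goes with Slco1c1 in 11 of 12 groups, and Slco2a1 goes against it in 12 of 12.

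Other genes of thyroid hormone handling were followed as lists. Of 7 other thyroid hormone transporters, 5 passed the filter, 0 were called for genotype, and their median genotype difference was -0.04 (all genes 0.0033). Among the most abundant were Slc7a5 and Slc3a2, the 2 chains of an amino acid exchanger that also takes thyroid hormone, with means of 6559 and 2595 reads. Slc7a5 had meta2d p-values of 3.2e-05 in Control and 0.00231 in Bmal1Mut mice, with q above the threshold of 0.05 in both (0.153 and 0.762). The Control q met the looser threshold that the paper used, and the Bmal1Mut q did not. That contrast is no test of a difference between genotypes. In the rhythm difference test, 0 of the 5 tested genes of this list had an unadjusted p under 0.05 (edgeR, 4.24% of all genes). The paper names the amino acid transporter Slc7a5a as rhythmic in controls and in mutants. In the ZT6 and ZT18 test, Slc7a8 (-3.43) and Slc16a10 (-1.49) were lower (adjusted p = 1.7e-10 and 0.0485, edgeR). The median in the same test was -3.80 over the microglia and macrophage markers, -1.48 over astrocyte and -1.93 over oligodendrocyte markers. It was 0.48 over endothelial markers and 0.52 over those of pericytes and smooth muscle. What part these shifts have in the values of this list and the lists below was not tested.

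Of 5 deiodinases and binding proteins, 3 passed the filter, 0 were called for genotype, and Dio2, the activating deiodinase, and Ttr, the thyroxine carrier protein that choroid plexus makes in bulk, were lower in ZT6 and ZT18 (-1.32 and -1.78, adjusted p = 6.0e-05 and 0.00681, edgeR). Crym, which encodes a thyroid hormone binding protein of the cytosol, had a mean of 18.0 reads, against 203.0 for Dio2 and 10338 for Ttr. All 8 receptors, partners and target genes passed, and 0 were called for genotype (median 0.03). The corepressor gene Ncor1 and the receptor gene Thra were among the most abundant, with means of 3224 and 1253 reads. Thra had a genotype difference of 0.49 ± 0.14 (adjusted p = 0.214, edgeR). Klf9, a known thyroid hormone target, was higher in ZT6 and ZT18 (0.42, adjusted p = 0.0114, edgeR) and Hr was lower (-1.18, adjusted p = 0.0262, edgeR).

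Of 16 prostaglandin genes, 14 passed the filter and 0 were called for genotype (median 0.05). The most abundant were Abcc4, an exporter of prostaglandins, with a mean of 3327 reads, Ptges3 with 753 and the cyclooxygenase gene Ptgs1 with 319. In ZT6 and ZT18 the prostaglandin E synthase gene Ptges was higher (0.83, adjusted p = 0.0132, edgeR). Ptgs1 (-1.21), Ptgds (-1.99), Hpgd (-3.56) and Tbxas1 (-4.02) were lower. The part that the shifts of the cell type markers have in these values was not tested either. The list of organic anion genes outside the Slco family, which holds transporters and the sulfotransferase gene Sult1a1, had 6 of its 7 genes in the table and 5 past the filter, with 0 called for genotype (median 0.03, the value of Sult1a1). Of its transporters, Abcg2, Slc22a8 and Abcc5 were the most abundant, with 2532, 1508 and 624 reads, and Slc22a8, the organic anion exchanger that works beside Slco1a4, was higher in ZT6 and ZT18 (0.31, adjusted p = 0.0136, edgeR). Of the other Slco genes, 1 of 4 was called there, Slco4a1, which was lower (means of 2.00 and 19.8 reads, adjusted p = 0.00563, edgeR).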

How the data were processed

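The series holds 24 RNA-seq libraries of endothelium sorted from the brain by CD31, 1 per mouse. The authors prepared strand-specific libraries from total RNA, aligned reads to GRCm38 with STAR 2.5.3a and Ensembl gene models, merged each library's alignments with SAMtools 1.3.1 and deposited read counts per gene that PORT had normalized to similar totals. Strand-specific counting of these files is not given in the sources used here. The values are whole numbers and were used as counts, so counting error can be judged only after normalization. Groups came from the sample labels. A gene was tested if 6 mice of one genotype reached 5 reads.

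Differences were fitted over all genes with edgeR 4.0.16 in R 4.3.3 (TMM, quasi-likelihood test), with genotype and the 6 time points as terms, or genotype with an indicator of ZT6 and ZT18, or, for rhythm differences, a 24 h harmonic and its product with genotype. Rhythms were tested with meta2d at 24 h, rewritten in Python 3.11.15 (NumPy 2.4.6, SciPy 1.17.1, pandas 2.3.3). Benjamini-Hochberg adjustment ran over all tested genes. Correlations and root mean square differences used log2(TMM-scaled reads + 1), a pseudocount of 1, with 100000 permutations, or all of them for 8 mice. Plots were drawn with matplotlib 3.10.9. The scripts were tested on simulated data. Lengths came from a GENCODE annotation of GRCm38, as the union of exons.

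The members, lists and tests were chosen with earlier results of these data known. The genes named are the 5 members, list genes with an adjusted p under 0.05 or among the 3 highest of their list, and the 3 genes most like each member. Some listed genes that meet this rule are not reported here. Alternatives were DESeq2 1.42.0, no scaling, no filter, no time term, a replicate block, the i5 index as covariate, sets of mice left out and each mouse left out. The interaction with ZT6 and ZT18, time as 6 separate points, the comparisons within groups and of promoter windows, and leaving out the 3 mice of separate library numbers were added after the data were seen.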

Additional observations from a re-analysis of the deposited data

Results flagged for a closer look

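The effect of ZT6 and ZT18 on Slco2a1 differed between genotypes at an unadjusted p of 0.0465 (edgeR's quasi-likelihood test, mutant minus control -0.93 ± 0.45, adjusted p = 1.00). Control mice had 156 to 233 reads at ZT6 and ZT18 and 40 to 142 at the other times, while Bmal1Mut mice had 84 to 219 and 40 to 218. With each mouse left out the value lay between -1.33 and -0.75, and it was -0.91 with DESeq2 (p = 0.0539), -0.96 without scaling (p = 0.0438) and -0.92 with the replicate block (p = 0.0502), each with n = 24 mice. With the block Slco3a1 reached this level instead (0.83, p = 0.0468, against 0.73 with p = 0.10 without it, n = 24 mice). Among 5 members tested, 1 at this level of p is set against 3.9% of all genes. No group of mice held more than 2 animals, so single mice were not tested as outliers.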

How the results depend on the processing

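At the threshold of 0.05, no member was called for genotype, rhythm or rhythm difference under any of the alternatives run, each mouse left out included. For ZT6 and ZT18 the count of members called lay between 0 and 1 with each mouse left out, and Slco1c1 between 0.21 and 0.27 (adjusted p = 0.0268 to 0.0934), while Slco3a1 passed without the second ZT6 Control mouse (0.66) and without the first ZT10 Bmal1Mut mouse (0.63). The genotype value of Slco2a1, near 0, changed sign with DESeq2 (-0.00065), no filter (-0.00035), the i5 index (-0.021), no time term (-0.058), without the 3 mice of separate library numbers (-0.098) and in the ZT6 and ZT18 mice only (-0.63), and lay between -0.12 and 0.10 with each mouse left out. Slco3a1 changed sign without the ZT6 and ZT18 mice (-0.14, and -0.015 to 0.22 with each mouse left out) and Slco2b1 in those mice only (-0.069) and without the 3 mice of separate library numbers (-0.0036). In the interaction, Slco1c1 changed sign without scaling (-0.039, and -0.059 to 0.072 with each mouse left out), and Slco1a4 lay between -0.090 and 0.039. All genes called for genotype were 31, against 99 with DESeq2, 141 with no filter, 3 with the i5 index, 3 with no time term, 3 without the 3 mice of separate library numbers, 0 in the ZT6 and ZT18 mice only and 21 to 69 with each mouse left out. For rhythm differences they were 0, against 1 with DESeq2 and 52 with no filter, and for rhythms in Control mice 0, against 25 with the cosinor and 17 with its replicate block. The causes were not tested. With the replicate block, 38 genes were called for genotype and 2620 for ZT6 and ZT18, and 0 and 1 members. The labels do not say that equal replicate numbers mark a shared experiment. The difference between replicates correlated above 0.1 in 34 of 66 pairs of groups (median 0.11, range -0.097 to 0.33), so in part of them and not in all, and the numbers were not used as pairs. Counts near 100 reads and 2 mice per group limit Slco3a1 and Slco2a1, whose genotype intervals reach 0.56 and 0.47.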
